A study of Mus musculus with 2 samples.

Results

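CD200 and its receptor family were followed through the immune cells of mouse tumours. The family was taken by gene symbol as Cd200, Cd200r1, Cd200r2, Cd200r3 and Cd200r4, all 5 of which were found among the 32285 genes of both count matrices. CD200 is a membrane glycoprotein of the immunoglobulin superfamily with a short cytoplasmic tail, and it acts through receptors on other cells. CD200R1, the inhibitory receptor, recruits the adaptors Dok2 and Dok1 and the GTPase activator RasGAP through its cytoplasmic tail, and restrains mast cells, macrophages and other myeloid cells. The receptors encoded by Cd200r2, Cd200r3 and Cd200r4 in the mouse have short tails and pair with activating adaptors such as DAP12, and whether they bind CD200 itself is disputed.

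Single-cell libraries of bead-enriched CD45+ cells came from CT26 tumours, grown under the skin of BALB/c mice from a mouse colon carcinoma line. Mice were 5 weeks old at assignment and received their diet for 1 week before tumour cells were injected. The Control library came from mice on a normal diet, and the Arg library was taken to be from mice fed an isocaloric diet lacking arginine, since the design names only these groups and the library's own label gives no diet. Tumours were collected on day 20, every animal carried the same tumour line, and no source used here gives the number of mice per library. Each group was 1 library, so no comparison between diets has a replicate check. The intervals given are 95% intervals that cover counting error only, and they are too narrow where a few cells hold many of a gene's unique molecular identifiers (UMIs).

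After filtering, 12991 Arg and 12800 Control cells remained, with medians of 8294 and 10021 UMIs, and 40 of them in each library carried a barcode also found in the other. Cells were clustered with the 5 genes withheld from the clustering genes, clusters were named from marker lists, and the names mean cells that look like the type. In all, 12 classes held at least 50 cells in both libraries and were compared. Levels are summed UMIs of a class scaled to that class's UMI total and given as counts per 1e6 (CPM). As 3′ UMI counts register a transcript once whatever its length, they were not scaled by length, and differences in capture between genes were not corrected. The classes carried markers from the lists that had named them, for example Cd8a in 89.2% of CD8 T cells, Foxp3 in 79.3% of regulatory T cells (Treg), Ccr7 in 94.1% of mature dendritic cells, Siglech in 97.3% of plasmacytoid dendritic cells (pDC) and Cpa3 in 96.6% of mast cells. Some listed markers were rare in their own class. Ly6d was found in 14.3% of pDC, Klra8 in 2.32% of NK cells, Cd7 in 9.39% of Cd209a-type dendritic cells (cDC2) and Chil3 in 15.7% of monocytes. Ptprc, which encodes CD45, was found in only 47.6% of the shallow mast cells.

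The 5 genes share 1 stretch of chromosome 16 (GRCm38, GENCODE M21). The receptor genes lie in a row on the plus strand, with Cd200r1 at chr16:44765736-44794978, Cd200r4 at chr16:44811733-44839150, Cd200r2 at chr16:44867097-44915840 and Cd200r3 at chr16:44943678-44981380. Cd200 lies on the minus strand at chr16:45382135-45409053, with Ccdc80, Slc35a5, Atg3 and Btla between it and the receptors. Promoter windows from RefSeq (GRCm38.p6, 300 bases ending after the annotated start) are shown for the ligand and for the activating receptors Cd200r3 and Cd200r4. These receptor windows are alike over part of their length. Both genes were highest in mast cells, but Cd200r4 was also found widely in other classes and Cd200r3 was not. No window was found for Cd200r1. The windows shown span chr16:45409004-45409303 on the minus strand for Cd200, and chr16:44943428-44943727 and chr16:44820478-44820777 on the plus strand for Cd200r3 and Cd200r4. The RefSeq start of Cd200r4 lies 8995 bases inside the GENCODE gene given above, so its window is not upstream of that gene's first base. Capitals mark AGATAA or its reverse TTATCT, letters that GATA factors are known to bind, and GGGCGGGG, a GC box.
Cd200: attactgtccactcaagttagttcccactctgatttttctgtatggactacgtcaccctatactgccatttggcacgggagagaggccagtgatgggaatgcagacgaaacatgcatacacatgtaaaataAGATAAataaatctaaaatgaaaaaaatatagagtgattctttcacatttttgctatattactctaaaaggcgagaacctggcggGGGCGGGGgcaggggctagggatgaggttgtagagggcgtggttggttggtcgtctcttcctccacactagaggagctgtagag
Cd200r3: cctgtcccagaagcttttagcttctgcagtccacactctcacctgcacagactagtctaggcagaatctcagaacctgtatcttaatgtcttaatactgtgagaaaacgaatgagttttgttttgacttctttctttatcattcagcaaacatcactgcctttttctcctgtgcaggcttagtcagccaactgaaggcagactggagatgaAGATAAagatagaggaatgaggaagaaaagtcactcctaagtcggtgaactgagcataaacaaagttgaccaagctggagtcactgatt
Cd200r4: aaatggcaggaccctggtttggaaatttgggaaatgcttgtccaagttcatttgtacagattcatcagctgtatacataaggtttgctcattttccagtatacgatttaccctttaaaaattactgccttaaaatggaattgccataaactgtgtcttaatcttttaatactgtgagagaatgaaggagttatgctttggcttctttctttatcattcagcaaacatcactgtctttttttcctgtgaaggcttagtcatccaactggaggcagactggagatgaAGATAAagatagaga
The Cd200r3 and Cd200r4 windows were identical at 180 of 225 aligned bases (80.0%), with a longest shared run of 32 bases. AGATAA, searched on both strands, was present in 3 of the 4 windows found for the family, the Cd200r2 window being the one without it, and in 11.2% of 32851 promoters of the same length. It lies before the RefSeq start in the Cd200 and Cd200r3 windows and after it in the Cd200r4 window. GGGCGGGG or its reverse was present in the Cd200 window only, and in 17.6% of all promoters. The motifs were chosen after the sequences had been read, and a match is a description of letters. The transcripts are distinct near their counted ends: Cd200r4 shared 40 of its 2043 words of 50 bases with Cd200r1 and 61 with Cd200r2, but none of these lay within the last 500 bases.

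Cd200 was densest in mature dendritic cells, pDC and T cells and low in NK cells, whereas Cd200r1 was spread over myeloid cells, mast cells, pDC and regulatory T cells, Cd200r4 was highest in mast cells, followed by macrophages, NK cells and monocytes in an order that differed between libraries, and Cd200r3 was almost a mast cell transcript. Cd200 gave 3790 UMIs in 1303 Arg cells and 2479 UMIs in 1073 Control cells. Cd200r1 (ENSMUSG00000022667), the most frequent of the family, was found in 29.6% of Arg and 26.6% of Control cells, and Cd200r4 (ENSMUSG00000062082) in 23.7% and 18.3%. Cd200r3 (ENSMUSG00000036172) was found in 1.49% and 0.734% of cells. Cd200r2 (ENSMUSG00000090176) was barely detected, with 39 UMIs in the Arg and 20 UMIs in the Control library.

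**Figure D1:**
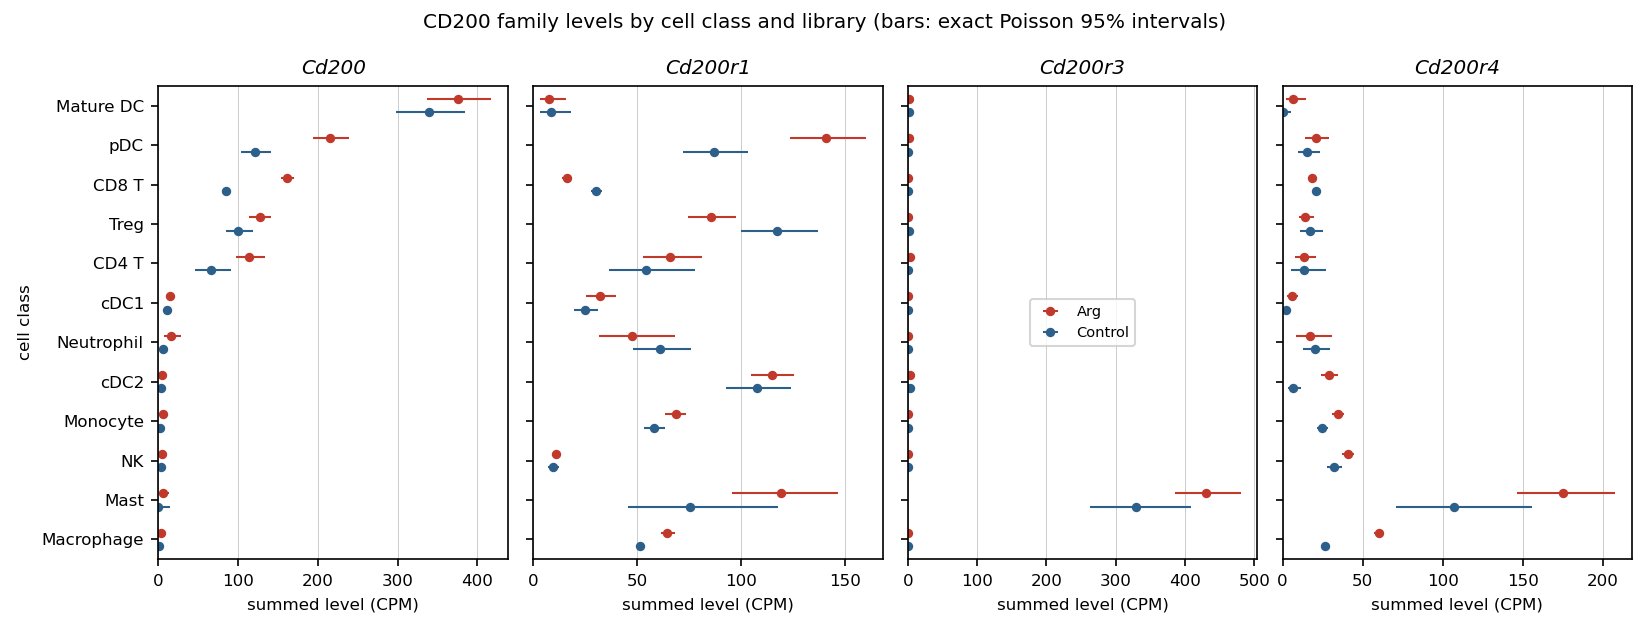
Summed level (CPM) of Cd200, Cd200r1, Cd200r3 and Cd200r4 on the x axes in 12 cell classes on the y axis, with Arg in red and Control in blue; bars are exact Poisson intervals. Cd200 stands at 375 and 339 CPM in mature dendritic cells and Cd200r3 at 430.5 and 329 CPM in mast cells.

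The ligand, Cd200 (ENSMUSG00000022661), was densest in mature dendritic cells, the migratory Ccr7+ state of dendritic cells. Its level there was 375 CPM (336–417; 339 UMIs) in the Arg and 339 CPM (297–384; 243 UMIs) in the Control library, above every other class in both libraries. A ratio of 1.11 (0.94–1.31) left these libraries indistinguishable within counting error. Mature dendritic cells made up only 0.57% and 0.484% of cells but gave 8.94% and 9.80% of all Cd200 UMIs. Some 32 of 74 Arg and 21 of 62 Control cells held 5 or more Cd200 UMIs, and a UMI was found in 81.1% and 82.3% of these cells. Cd200r1, by contrast, gave 7 and 6 UMIs in the same cells, a level of 7.75 and 8.36 CPM. Of the 12 compared classes, the one with the most ligand thus had, by value, the least of the inhibitory receptor. Cluster D5, led by Il12b, Bcl2l14, Ccl22 and Ccr7, best matched mature dendritic cells but was left unnamed for its T cell markers. Its 57 Arg and 47 Control cells gave 90 and 131 Cd200 UMIs and 69 and 45 Cd200r1 UMIs. The D5 cells were deeper, with a median of 20305.5 UMIs against 10963.

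Below mature dendritic cells came a group of pDC, CD8 T cells, regulatory T cells and helper-type CD4 T cells. The intervals of pDC lay above those of CD8 T cells in both libraries, while CD8 T and regulatory T cells overlapped in the Control library and regulatory T and CD4 T cells in both. pDC, the interferon-producing dendritic cells, held 215 CPM (194–239; 355 UMIs) in the Arg and 121 CPM (104–141; 172 UMIs) in the Control library. Regulatory T cells held 127 CPM (114–142) and 100.3 CPM (84.2–119), a ratio of 1.27 (1.04–1.56). In CD4 T cells, Cd200 stood at 114 CPM (96.8–134) and 65.4 CPM (45.5–90.9). This CD4 T level rested on few cells, since 11 of 226 Arg cells held 80.5% of its 154 UMIs. The small B lineage class, 62 and 37 cells, held 77.3 and 58.1 CPM.

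Cd200 fell away sharply outside these classes. cDC1, the cross-presenting dendritic cells, held 14.4 and 11.3 CPM. In the 22 Arg cDC1 with a Cd200 UMI the 5 T cell markers summed to 133 CPM, with 0 of them at 0, and the 5 pDC markers to 163 CPM, with 1 at 0, against 11.7 and 15.6 CPM in the cells without one. In Control cDC1 the same sums were 32.0 and 7.52 CPM with Cd200 and 18.1 and 8.03 CPM without, and the part of these cell types in the cDC1 value was not tested. Neutrophils held 15.2 and 5.60 CPM on 9 and 7 UMIs. cDC2, monocytes, NK cells, mast cells and macrophages all lay at or below 5.93 CPM in both libraries. Mast cells gave 4 Arg UMIs and 0 of the Control UMIs, where the limit of a count of 0 (3 counts) is 11.9 CPM. In cells thinned to 2000 UMIs, a Cd200 UMI was found in 40.6% of Arg and 50.8% of Control mature dendritic cells and 30.5% and 21.4% of pDC. The shares were 19.7% and 12.4% in CD8 T cells, 15.4% and 14.0% in regulatory T cells, and 0.716% and 0.209% in macrophages. Macrophages served as a low reference, and the part of free RNA in their value was not tested. Their cluster M11, led by Nos2, gave 43 of their 68 Arg Cd200 UMIs. Unthinned, the macrophage shares were 2.62% and 1.15% at median depths of 11079 and 13239.5 UMIs, beside 45.1% and 35.2% in CD8 T cells at 7504 and 8186 UMIs.

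Cd200 was past 1.5-fold, in either direction, in 4 of the 7 classes in which its mean level reached 10 CPM, and in all 4 it was higher in the Arg library. Neutrophils reached that mean only through the Arg library, at 15.2 against 5.60 CPM on 9 and 7 UMIs. The direction of their call is therefore not separate from the filter. A value counts as past 1.5-fold on the scale of log2(CPM + 5), and the share of all genes past it in either direction in the same class is given as background. In CD8 T cells the level was 162 CPM (154–170; 1639 UMIs) against 84.2 CPM (79.8–88.8; 1357 UMIs), a ratio of 1.92 (1.79–2.06), in a class where 5.09% of 8009 genes were past 1.5-fold. In pDC the ratio was 1.78 (1.48–2.14), where 7.94% of genes were past it. The ratio of CD4 T cells was 1.75 (1.20–2.60), where 15.8% of genes were past it, and that of neutrophils was 2.71 (0.90–8.58), an interval that includes 1, where 24.4% were past it. Thus the CD4 T and neutrophil values stood in classes with larger shares of genes past 1.5-fold than the CD8 T and pDC values did. In cluster D0, which held most pDC of both libraries, Cd200 was at 211 and 133 CPM, a ratio of 1.59 (1.29–1.96).

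CD8 T cells supplied the largest part of the ligand, 43.2% of Arg and 54.7% of Control Cd200 UMIs from 8.68% and 13.2% of cells. Within them the clusters differed more than the diets did. Cluster L8, led by Penk, Ifng, Crtam and Ccr7, held 299 CPM (Arg) and 249 CPM (Control), a ratio of 1.20 (1.05–1.37), and cluster L5, led by the granzyme gene Gzme and Serpine2, held 193 and 220 CPM, a ratio of 0.88 (0.74–1.05). Cluster L3, led by Gzmk and Lef1, a profile of less differentiated cells, held 5.35 and 6.66 CPM. Cluster L1, which carried Tox and Pdcd1 and made up 898 of 1685 Control but 55 of 1127 Arg cells, held 81.3 and 63.2 CPM, a ratio of 1.29 (0.87–1.83). Cluster L6, led by Nrgn and Pdcd1, held 149 CPM (Arg) and 71.4 CPM (Control), a ratio of 2.09 (1.79–2.44). Most Arg CD8 T cells thus lay in L5, L3 and L8 and most Control cells in L1 and L6, so the class ratio combines levels inside clusters with the mix of clusters. Without L1, an alternative chosen after seeing the data, the class ratio was 1.63 and the log2 value moved from 0.90 to 0.68, still past 1.5-fold.

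**Figure D2:**
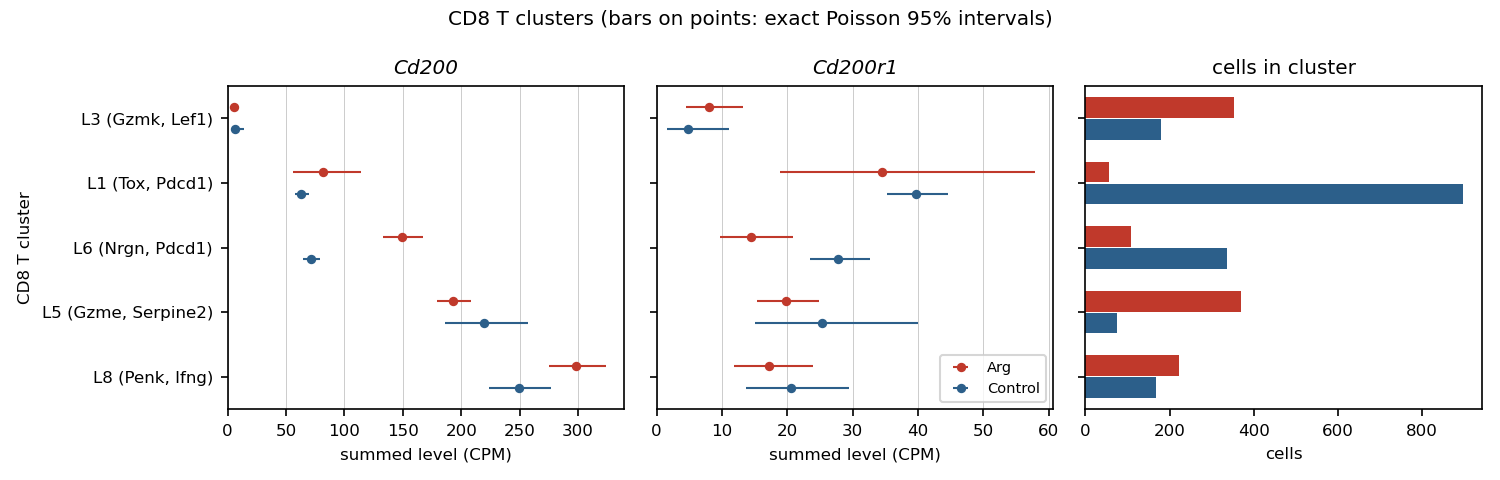
Cd200 and Cd200r1 levels (CPM, with exact Poisson intervals) and cell numbers in 5 CD8 T clusters, named with leading genes on the y axis, Arg in red and Control in blue. Cd200 runs from about 5 CPM in L3 to 299 and 249 CPM in L8, while Cd200r1 stays at or below 39.7 CPM.

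High Cd200 came in part from cells with many copies: 119 of 1127 Arg CD8 T cells held 5 or more UMIs and 52.1% of the class total, against 56 of 1685 Control cells with 30.1%. Genes known from helper T cells that carry CD200 were then read in T cells that held a Cd200 UMI and in those that held none, as a description within each library. Btla, an inhibitory receptor whose gene lies beside Cd200, was higher with Cd200 in all 3 T cell classes of both libraries by value, with ratios of 3.21 (2.13–4.84) and 4.70 (2.40–9.23) in CD4 T cells, 1.56 (1.03–2.39) and 1.92 (1.06–3.59) in regulatory T cells, and 1.38 (0.97–2.0) and 1.80 (1.32–2.46) in CD8 T cells. Icos, a costimulatory receptor, was lower with Cd200, at ratios of 0.56 and 0.34 in CD4 T cells, 0.75 and 0.69 in regulatory T cells, and 0.69 and 0.88 in CD8 T cells. Il21, the cytokine of follicular helper cells, gave 16 UMIs in Arg CD4 T cells, of which 15 were in the 31 cells with Cd200, and 1 UMI in the Control cells, in a cell without Cd200. Cxcr5, the follicular homing receptor, gave only 3 UMIs in the CD4 T cells of each library, too few to compare. Pdcd1 had ratios of 1.59 (1.09–2.28) and 2.16 (1.31–3.5) in CD4 T cells, 1.5 (1.14–1.98) and 0.85 (0.68–1.07) in regulatory T cells, and 1.48 (1.38–1.59) and 0.99 (0.95–1.03) in CD8 T cells. Bcl6, the transcription factor of follicular helper cells, had ratios of 1.03 and 0.61 in CD4 T cells, 0.51 and 0.57 in regulatory T cells, and 0.66 and 1.03 in CD8 T cells. Btla was thus higher and Icos lower in both libraries of each class, while Pdcd1 and Bcl6 differed between libraries or classes. Cells with a Cd200 UMI were deeper, with a median of 9320 against 4559 UMIs in Arg CD4 T cells, and the part of depth in these ratios was not tested.

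Cd200 was also found in some of the monocyte-macrophage clusters. Cluster M0, led by Cxcl3, Mmp13, Mmp12 and Arg1 and left unnamed between monocytes and macrophages, held 12.6 CPM (269 UMIs in 145 of 2129 cells) in the Arg and 5.98 CPM (67 UMIs in 37 of 1042 cells) in the Control library, a ratio of 2.11 (1.61–2.80). Cluster M12, the monocytes led by the interferon-response genes Rsad2 and Ifit1, held 12.5 and 3.77 CPM on 52 and 11 UMIs. Every other monocyte-macrophage cluster lay at or below 5.07 CPM. In M0 cells with a Cd200 UMI the 5 T cell markers summed to 11.9 and 14.8 CPM, with 1 and 2 of them at 0, against 20.1 and 23.8 CPM in M0 cells without one. The 5 mature dendritic cell markers summed to 4.62 and 2.47 CPM there, with 1 and 4 at 0, against 4.44 and 4.07 CPM. The 7 macrophage markers summed to 3293 and 5293 CPM there, against 4683 and 5325 CPM, and the 6 monocyte markers to 977 and 1270 CPM, against 1433 and 1819 CPM. Fibroblast and tumour cell markers were not read in these cells. T cell markers were thus sparser by value in the M0 cells that carried Cd200, on only 37 such cells in the Control library. Dendritic markers differed by little, and macrophage and monocyte markers were also lower by value. In named macrophages, by contrast, the same T cell markers summed to 63.3 and 155 CPM in the 47 and 46 cells with Cd200 against 22 and 23.6 CPM in the rest, and in NK cells to 1202 and 1792 CPM against 406 and 377 CPM; the part of T cell RNA in these Cd200 values was not tested.

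The inhibitory receptor, Cd200r1, was highest in pDC, cDC2, regulatory T cells and mast cells, whose intervals overlapped between neighbours in at least 1 library. cDC2, the antigen-presenting dendritic cells of the Cd209a type, held 115 CPM (105–125; 497 UMIs) in the Arg and 107 CPM (92.8–124; 192 UMIs) in the Control library. pDC held 141 CPM (123–160) and 86.8 CPM (72.1–104), regulatory T cells 85.4 CPM (74.6–97.4) and 117 CPM (99.7–137), and mast cells 119 CPM (95.6–146) and 75.4 CPM (45.4–118). Next by mean level, monocytes, CD4 T cells, macrophages and neutrophils lay between 47.3 and 68.4 CPM. cDC1 and CD8 T cells held 16.2 to 31.9 CPM and NK cells 10.8 and 9.54 CPM. In NK cells with a Cd200r1 UMI the 5 T cell markers summed to 674 and 1122 CPM, against 421 and 364 CPM without one. The 5 regulatory T cell markers summed to 1141 and 999 CPM with it, against 533 and 523 CPM. The part of T cell RNA in the NK values was not tested. By number of molecules macrophages and their neighbours were the main source: macrophages, M0 and M1 (led by Ly6i) gave 19.5%, 25.3% and 20.3% of Arg and 47.0%, 16% and 4.54% of Control Cd200r1 UMIs.

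**Figure D3:**
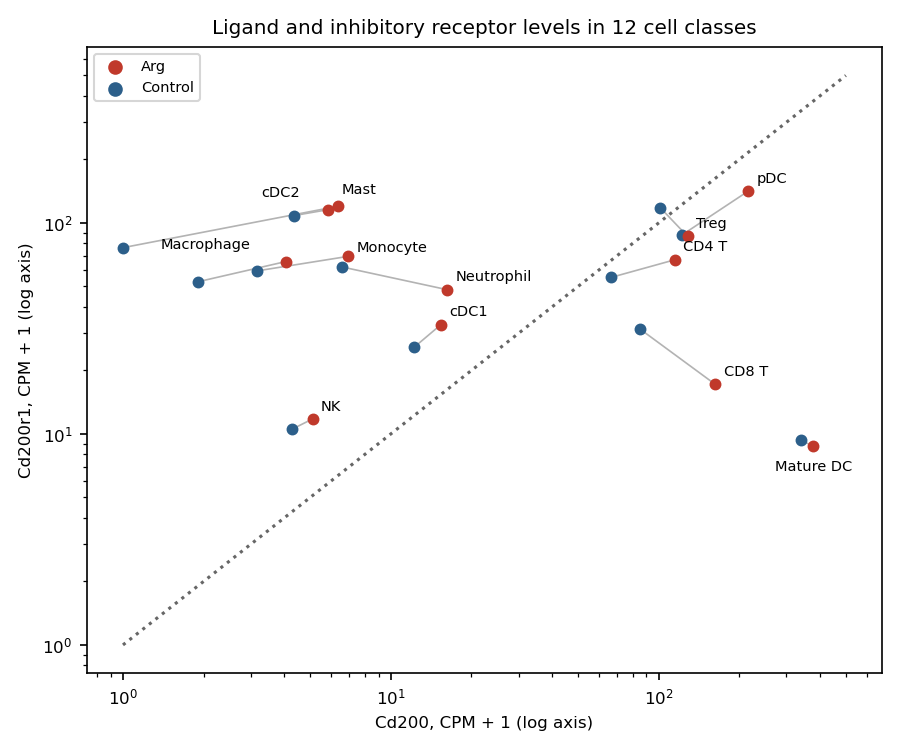
Cd200 level on the x axis against Cd200r1 level on the y axis (CPM + 1, log axes) in 12 classes, each Arg point in red joined to its Control point in blue; the dotted line marks equal levels. Mature dendritic cells, pDC, CD8 T and CD4 T cells lie under the line in both libraries, regulatory T cells lie on either side of it, and the other 7 classes lie above it.

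Read against each other, ligand exceeded inhibitory receptor in both libraries in 4 classes: mature dendritic cells, pDC, CD8 T cells and CD4 T cells. Regulatory T cells lay on different sides, with more Cd200 than Cd200r1 in the Arg library (127 against 85.4 CPM) and less in the Control library (100.3 against 117 CPM). pDC and regulatory T cells stood out by holding both genes at 85.4 CPM or more in both libraries. Over the 24 class and library sums, Cd200 and Cd200r1 had a Pearson correlation of -0.20 and Cd200 and Cd200r4 one of -0.53 on log2(CPM + 5), values that share 2 libraries and are given as descriptions.

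Cd200r1 was past 1.5-fold in 3 of its 11 measured classes, higher in 2 and lower in 1. In pDC, where 7.94% of genes were past 1.5-fold, the ratio was 1.62 (1.30–2.04), and within their main cluster D0 it was 1.41 (1.10–1.82). The mast cell ratio was 1.58 (0.95–2.74), on 89 and 19 UMIs, where 30.3% of genes were past 1.5-fold. CD8 T cells, where 5.09% of genes were past it, went the other way. They held 16.2 CPM (13.8–18.9; 164 UMIs) in the Arg against 30.4 CPM (27.8–33.2; 490 UMIs) in the Control library, a ratio of 0.53 (0.44–0.64). The difference was seen inside cluster L6 (14.5 and 27.8 CPM; ratio 0.52, 0.34–0.78) but not clearly in L1 (34.5 and 39.7 CPM), L5 (19.7 and 25.3 CPM) or L8 (17.1 and 20.5 CPM). L3 lay the other way by value, at 8.03 and 4.76 CPM on 15 and 5 UMIs, a ratio of 1.69 (0.58–5.93). Without L1 the log2 value moved from -0.74 to -0.45 and was no longer past 1.5-fold. Macrophage markers were no denser in CD8 T cells with a Cd200r1 UMI (223 and 289 CPM) than in those without one (282 and 322 CPM). Macrophages held 64.6 CPM (61.3–68.0) and 51.6 CPM (49.7–53.5), a ratio of 1.25 (1.17–1.33), and regulatory T cells had a ratio of 0.73 (0.59–0.90), neither past 1.5-fold. Where 5.96% of macrophage genes and 6.11% of regulatory T cell genes were past it, Cd200r1 was not.

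Cd200r1 varied inside the myeloid classes. In macrophages it was at 103 CPM in Control and 75.4 CPM in Arg cells of cluster M6, led by Lyve1 and Cd163, markers of tissue-resident macrophages. It was at 40.1 and 54.5 CPM, in the same order, in cluster M2, led by Ch25h and Cx3cr1. Cluster M11, led by Nos2 and Cxcl9, held 72.3 CPM in the Arg and 39.5 CPM in the Control library, a ratio of 1.83 (1.40–2.42) opposite in direction to that of M6 (0.73, 0.63–0.84). M11 was the cluster with most Arg macrophages (626 of 1796), and M2 that with most Control macrophages (2027 of 4000). Among cDC2, cluster D2, led by Timd4 and Cd209a, held the least, 71.0 and 31.4 CPM, a ratio of 2.26 (1.42–3.76), while D3, led by Ccl17 and Mgl2, held 146 and 121 CPM. The 22 cells of D9, led by Ear2, held 196 and 306 CPM.

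Ligand and inhibitory receptor met in single cells of pDC, regulatory T cells and CD8 T cells. In pDC, 75 of 170 Arg and 46 of 159 Control cells held UMIs of both Cd200 and Cd200r1, where the shares of each gene predicted 69.0 and 41.0. In regulatory T cells 59 and 27 cells held both, where 49.6 and 24.7 were predicted. In CD8 T cells 79 and 139 cells held both against 55.4 and 111 predicted, ratios of 1.42 and 1.26. Deep cells reveal more of both genes, so the counts were repeated on cells thinned to 2000 UMIs. There the CD8 T ratios were 1.60 (12 cells against 7.50) and 1.70 (20 against 11.8), and pDC gave 8 cells against 11.6 and 7 against 4.93. The regulatory T cell counts given here are unthinned and carry the effect of depth. Of 6 class and library pairs with at least 3 cells predicted after thinning, 4 lay above 1, and no interval was computed for these ratios. The CD8 T class pools clusters that are low in both genes with clusters that are not, L3 for example holding Cd200 in 8 and Cd200r1 in 12 of its 353 Arg cells, and the part of this mix in the CD8 T ratios was not tested.

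**Figure D4:**
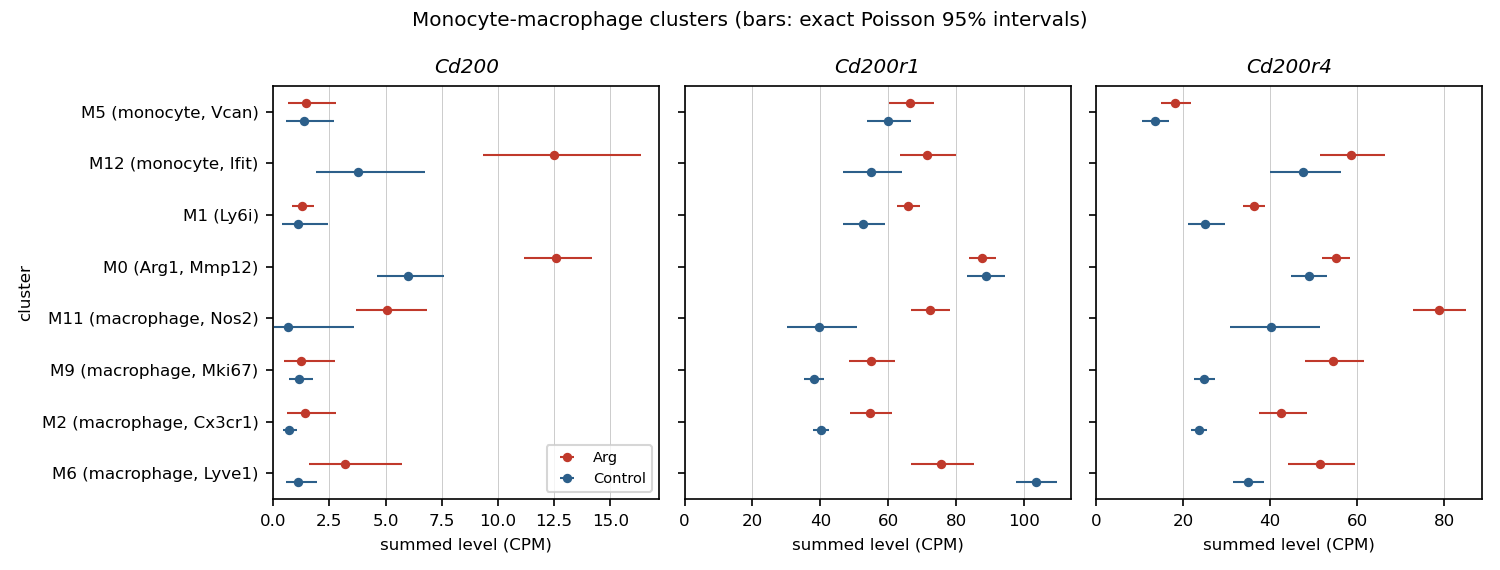
Levels (CPM, with exact Poisson intervals) of family members on the x axes in monocyte-macrophage clusters, named with leading genes on the y axis, Arg in red and Control in blue. Cd200r4 in the Arg library exceeds Control in each of the macrophage clusters M2, M6, M9 and M11, with the highest Arg level, 78.7 CPM, in M11.

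Cd200r4, an activating receptor gene, was highest in mast cells at 175 CPM (146–208; 131 UMIs) in the Arg and 107 CPM (70.6–156; 27 UMIs) in the Control library. Macrophages, NK cells and monocytes followed, but macrophages lay above NK cells in the Arg library and below them in the Control library, in neither with overlapping intervals, while NK cells and monocytes overlapped in both. Macrophages held 60.2 CPM (57.0–63.5; 1345 UMIs) and 26.6 CPM (25.2–27.9; 1503 UMIs). NK cells held 40.9 CPM (37.3–44.7) and 32.2 CPM (28.0–36.9), and monocytes 34.5 and 24.9 CPM. NK cells thus held more Cd200r4 than Cd200r1 in both libraries. cDC1 and mature dendritic cells held the least, 5.58 and 1.99 CPM in cDC1, and 6 Arg UMIs and 0 Control UMIs in mature dendritic cells, a limit of 4.18 CPM. After thinning, a Cd200r4 UMI was found in 11.5% of Arg and 5.06% of Control macrophages and in 35.7% and 11.4% of mast cells, against 41.3% and 27.9%, and 48.0% and 32.1%, unthinned.

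Cd200r4 was past 1.5-fold, and higher in the Arg library, in 3 of its 10 measured classes. One of them, cDC2, reached the mean of 10 CPM only through the Arg library, at 28.8 against 6.71 CPM. The direction of the cDC2 call is therefore not separate from the filter. The macrophage ratio was 2.27 (2.10–2.44), log2 1.05, in a class where 5.96% of genes were past 1.5-fold. Each macrophage cluster lay in the same direction: the ratio was 1.81 (1.55–2.10) in M2, 1.47 (1.22–1.76) in M6, 2.2 (1.88–2.58) in the cycling cluster M9 and 1.96 (1.51–2.59) in M11. In M0 it was 1.13 (1.02–1.25), and in M1 it was 1.44 (1.20–1.74). Without M11, an alternative chosen after seeing the data, the macrophage log2 value was 0.79, still past 1.5-fold. The mast cell ratio was 1.64 (1.07–2.58), in a class where 30.3% of genes were past 1.5-fold. In cDC2, where 5.73% of genes were past 1.5-fold, the ratio was 4.30 (2.37–8.54) on 125 and 12 UMIs, log2 1.53, and 7 of 336 Arg cells held 56% of the Arg UMIs. That cDC2 log2 value depended on the clustering, since it was 0.47 with finer clusters (resolution 2), no longer past 1.5-fold, and 0.65 with doublets kept. Monocytes and NK cells, with 3.86% and 1.6% of genes past 1.5-fold, had ratios of 1.39 (1.17–1.65) and 1.27 (1.07–1.5), short of it.

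Cd200r3 followed mast cells. It stood at 430.5 CPM (385–480.1; 322 UMIs) in the Arg and 329 CPM (262–408; 83 UMIs) in the Control library, a ratio of 1.31 (1.02–1.69) that was not past 1.5-fold. Mast cells were 1.36% and 0.438% of cells but gave 79.5% and 54.6% of Cd200r3 UMIs, and the whole-library level of Cd200r3, 2.94 against 0.876 CPM, moved with their share. No other compared class passed 3.36 CPM, and neutrophils and cDC1 gave 0 UMIs in both libraries. A UMI was found in 71.8% and 67.9% of mast cells, and in 62.7% and 62.9% after thinning, which left out 51 and 21 shallower cells. Among cDC2 the cells of D9 held 19.1 and 32.5 CPM on 4 and 5 UMIs. In Arg mast cells 61 cells held both Cd200r3 and Cd200r4 where 61.0 were predicted, and 50 held both Cd200r1 and Cd200r3 where 45.9 were predicted, so the inhibitory and activating receptors lay in the same mast cells about as often as their shares give.

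Cd200r2 was too sparse to compare. NK cells gave 15 of its 39 Arg and 10 of its 20 Control UMIs, of which 9 and 5 came from cluster L7, led by Xcl1 and Ncr1. Macrophages gave 10 and 2 UMIs, of which 7 Arg UMIs came from M11. It reached a mean of 10 CPM in 0 classes, so its level was below what this depth can compare.

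In single cells of the Macrophage class the receptors were found together more often than their shares give: 389 Arg and 567 Control cells held both Cd200r1 and Cd200r4, where 308 and 439 were predicted. Ratios of 1.26 and 1.29 became 1.33 and 1.18 after thinning. Nos2, the inducible nitric oxide synthase that uses arginine, was at 206 CPM in Arg macrophages with a Cd200r4 UMI and 71.8 CPM in those without, a ratio of 2.87 (2.65–3.12), and at 15.4 and 9.29 CPM in Control macrophages, a ratio of 1.66 (1.42–1.94). Il6 was denser in macrophages with Cd200r1 than without, by 2.14 (1.41–3.32) and 2.62 (2.09–3.30), and Tnf was sparser, at 0.85 and 0.82. Il6 was low in the class as a whole, at 4.97 and 6.68 CPM, short of the mean of 10 CPM asked of compared genes. The libraries differed in direction for Nos2 with Cd200r1, at 1.77 (1.65–1.91) in Arg and 0.85 (0.72–0.99) in Control, and for Il6 with Cd200r4, at 0.51 (0.34–0.76) and 1.75 (1.42–2.15). In cluster M0, Nos2 was denser with Cd200 than without in the Arg library (ratio 2.50, 2.27–2.75) and not in the Control library (0.83, 0.57–1.16). Macrophages with a receptor UMI were deeper than those without, and the part of depth and of cluster mix in these ratios was not tested.

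The wider pathway was read from gene lists. Of the 5 genes that transmit the CD200R1 signal (Dok1, Dok2, Rasa1, Crkl and Inpp5d), 0 were past 1.5-fold in CD8 T cells, macrophages, monocytes, NK cells, mast cells, regulatory T cells or cDC2, with a macrophage median log2 of 0.10 beside 0.01 over all genes. Dok2 was the one past it in pDC (6.68 against 14.1 CPM, on 11 and 20 UMIs) and in cDC1 (24.3 against 12.2 CPM), in opposite directions, Dok1 in CD4 T cells (11.9 against 20.5 CPM) and Crkl in mature dendritic cells (14.4 against 26.5 CPM). Over all genes 6.1% were past 1.5-fold in cDC1 and 21.3% in mature dendritic cells. Of the activating adaptor and kinase genes Tyrobp, Hcst and Syk, 0 of 3 were past 1.5-fold in macrophages and 2 of 3 were past it in mast cells, where 30.3% of all genes were. Hcst there was at 126 against 79.3 CPM, a ratio of 1.58 (0.97–2.71), and Syk at 52.1 against 27.8 CPM, a ratio of 1.88 (0.83–4.98), and both intervals include 1. Over all monocyte-macrophage clusters together, 7489 Arg and 6644 Control cells, 10.1% of genes were past 1.5-fold. Syk was among them there, at 214 against 129.8 CPM with a ratio of 1.65 (1.61–1.69), as was Cd200r4 with a ratio of 1.64 (1.56–1.73).

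Among mediators that CD200R1 is known to restrain or change, Nos2 stood apart in macrophages, at 142 CPM (Arg) against 11.4 CPM (Control). Its ratio was 12.5 (11.4–13.6), and it was 1 of 3 measured there past 1.5-fold. Cluster M11, which Nos2 leads, held 626 of 1796 Arg but 127 of 4000 Control macrophages, and the part of this mix in the ratio was not tested. The Nos2 ratio was 4.23 (4.04–4.43) over all monocyte-macrophage clusters, 2.92 (2.47–3.46) in M1 and 1.5 (1.40–1.61) in M0. Nos2 was also past 1.5-fold and higher in Arg monocytes (69.7 against 39.8 CPM) and neutrophils (70.9 against 23.2 CPM), and lower in Arg mast cells (9.36 against 19.8 CPM, on 7 and 5 UMIs). Tnf was lower in Arg pDC (138 against 521 CPM), cDC1 (13.2 against 32.1 CPM) and cDC2 (43.8 against 71.6 CPM), and higher in Arg CD8 T cells (58.7 against 30.3 CPM), CD4 T cells (102 against 39.2 CPM), regulatory T cells (77.8 against 43.2 CPM), NK cells (40.3 against 24.2 CPM) and neutrophils (155 against 77.6 CPM). Il6 was higher in Arg mast cells (575 against 190.4 CPM) and lower in Arg monocytes (33.7 against 56.7 CPM) and cDC2 (20.1 against 33.6 CPM). Il1b was higher in Arg mast cells (305 against 87.3 CPM) and pDC (202 against 83.2 CPM). The mediators thus went both ways between classes, and Ido1, the last of the list, was too low to measure in any class. As background, 30.3% of all genes were past 1.5-fold in mast cells, 24.4% in neutrophils and 15.8% in CD4 T cells. In the other compared classes named here the share ran from 1.6% in NK cells to 7.94% in pDC. Of other ligand and receptor pairs, Cd274, which encodes PD-L1, was higher in Arg macrophages (491 against 189 CPM), monocytes (917 against 558 CPM), neutrophils (2525 against 1153 CPM) and mast cells (283 against 167 CPM). Pdcd1, its receptor PD-1, was lower in Arg CD8 T cells (380 against 597 CPM) and regulatory T cells (92.7 against 237 CPM), classes in which Cd200 was not lower. Clusters L1 and L6, both with Pdcd1 among their leading genes, held 55 and 109 of 1127 Arg CD8 T cells. In the Control library they held 898 and 336 of 1685, and the part of this mix in the Pdcd1 value was not tested. Sirpa, also among these pairs, was higher in Arg CD4 T cells (17.8 against 9.34 CPM, on 24 and 5 UMIs). Of the same pairs, 1 gene was past 1.5-fold and higher in cDC1 and 1 in pDC, and 1 was lower in monocytes and 1 in mast cells.

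By the pattern over the 24 class and library sums of 12 classes, among 11534 genes, Cd200r3 was most like Gp1ba, Ms4a2, Gnaz, Gm48925 and Gata2 (Pearson r 0.991 to 0.990), of which Ms4a2 encodes a chain of the IgE receptor of mast cells. Ms4a2 and Gata2 were also on the marker list that named the mast class. Cd200r3 passed 3.36 CPM in no other compared class, so these correlations rest on the mast cell sums. The 5 genes most like Cd200 were Rabgap1l (0.879), Gm36975, Stk4, Ninj2 and Hivep1 (0.855). Those most like Cd200r1 were Cklf (0.815), Kif13a, Bbip1, Tnfrsf13b and Ufsp2 (0.750), and those most like Cd200r4 were Calm2 (0.854), Agpat2, Rnf128, Fer and Psenen (0.798). Among members the closest pair was Cd200r3 and Cd200r4 (0.655), and all these values share 2 libraries and are descriptions.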

How the data were processed

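Per the labels' protocols, tumours were dissociated, CD45+ cells were taken with magnetic beads, and 10x 3′ v3 libraries were sequenced. The deposited values are raw counts of UMIs per gene and barcode, with no normalization. Cell Ranger 7.0.1 wrote the matrices, per the file headers, but version 2.2.2 is the one in the submitters' processing notes, which also give the build GRCm38. The treatment of intronic reads is not given in these sources. The matrices held 14540 (Arg) and 14343 (Control) barcodes with 155927693 and 191505551 UMIs, and 44 barcodes were shared by both.

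A barcode was kept if it had 200 or more genes, 500 or more UMIs and a mitochondrial share of no more than 10%. Scrublet (expected share 8%) called 884 (6.37%) and 687 (5.09%) doublets, which were removed. Clusters used 2000 variable genes without the family, 30 principal components, 20 neighbours and Leiden resolution 1, on both libraries together. A cluster took a name where its markers had a mean log2 fold of at least 1, at least 3 were each found in 20% of cells, and no other lineage's markers reached 0.5. The naming thresholds were chosen with the clusters already in view. Counting T cell state markers (Ccr7) as a T cluster's own, which keeps cluster L8 in CD8 T, was decided after its effect had been seen. The family, the gene lists and the marker lists were chosen with earlier results of these data known.

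Levels have exact Poisson, shares exact Clopper-Pearson and ratios exact conditional binomial 95% intervals, which cover counting error only. With 1 library per group there was no test. A ratio was past the fold at 1.5 on log2(CPM + 5) for genes with a mean of at least 10 CPM. Named genes were the 5 members in all classes, the listed pathway genes, and the 5 genes most correlated with each member. Alternatives were other resolutions, doublets kept, other cell filters, family genes allowed in clustering, centring within libraries, TMM factors, other pseudocounts and thinning depths, and classes without single clusters. The calculations were tested on simulated data. Software was Python 3.11.15, scanpy 1.11.5, leidenalg 0.10.2, scipy 1.17.1, R 4.3.3 and edgeR 4.0.16 (TMM factors only).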

Additional observations from a re-analysis of the deposited data

Results flagged for a closer look

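The log2 ratio of Arg to Control for Cd200r1 went in opposite directions between classes, which is why it is listed here: it was -0.74 in CD8 T cells, 0.63 in mast cells and 0.67 in pDC. Each value is 1 library against 1 library, and the difference between classes was not tested. The mast cell value rested on 89 and 19 UMIs, and the CD8 T value was -0.45 without cluster L1.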

How the results depend on the processing

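Ratios were recomputed 500 times under alternatives, of which 19 moved by more than their counting interval, or by 1 log2 unit or more where a count was 0. A reversal was counted only for ratios whose main log2 value was past 1.5-fold, and 0 were found. Smaller ratios could change sign without being counted as reversed. Of 830 levels 55 moved, and of 1190 shares 199 moved. The Cd200 log2 ratio in CD8 T cells was 1.07 at resolution 0.5 and 0.68 without cluster L1 (range 0.68 to 1.07, past 1.5-fold in 11 of 11), and it stayed past 1.5-fold in 9 of 9 alternatives in pDC (0.76 to 0.90) and in CD4 T cells (0.64 to 0.85). The Cd200r1 log2 ratio in CD8 T cells was -0.45 without L1. The Cd200r4 log2 ratio in macrophages was 1.17 at resolution 2 and 0.79 without cluster M11. In cDC2 the Cd200r4 log2 ratio was 0.47 at resolution 2 and 0.65 with doublets kept. Cd200r1 in cDC2 was 126 CPM (Arg) and 133 CPM (Control) with doublets kept, and 79.7 and 127 CPM in the Control library at resolutions 0.5 and 2. More cells than predicted held both Cd200 and Cd200r1 in 13 of 16 class and library pairs without thinning and in 4 of 6 with it, since fewer pairs then had enough cells predicted. Thinned to 1000 UMIs, 2 classes, against 4, had Cd200 in at least 10% of cells of both libraries. The median share of genes past 1.5-fold was 6.10%, 9.15% with a pseudocount of 1 CPM and 5.88% with no filter on low values. Leaving out single clusters was chosen after seeing the data. The cause of these changes was not tested. No paired analysis was possible because each group is 1 library. Depth limits Cd200r2 everywhere, and Cd200 in neutrophils and mast cells.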

Other observations

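Clusters outside the compared classes also held family members. Cluster L10, T or NK cells led by Gzmd, Gzme and Il2ra and left unnamed, held 71.3 CPM (Arg) and 60.1 CPM (Control) of Cd200, 55.6 and 59.1 CPM of Cd200r1, and 42.7 and 29.1 CPM of Cd200r4, in 191 and 50 cells. In it, 29 and 12 cells held both Cd200 and Cd200r1, where 20.6 and 8.64 were predicted. Cluster L7, NK cells led by Xcl1 and Dscam, held 25.5 and 39.7 CPM of Cd200r1, more than cluster L0 with 6.61 and 4.41 CPM, while L0 held 58.7 and 43.5 CPM of Cd200r4. Clusters with little Ptprc differed in their Cd200. M8 and M13, with Ptprc in 29.0% and 40.8% of cells, held at most 3.24 CPM of any member. The shallow cluster M10, with Ptprc in 33.9% of cells and a median of 800.5 UMIs, held 19.0 CPM (Arg) and 18.5 CPM (Control) of Cd200 on 18 and 33 UMIs, and 12.7 and 9.53 CPM of Cd200r1. Fibroblast cluster M23, with Ptprc in 44.7% of cells, held 62.9 and 18.3 CPM of Cd200, on 31 and 32 UMIs in 35 and 88 cells. Cluster M24, with Ptprc in 41.4% of cells, held 5.62 and 2.81 CPM of Cd200 and 20.6 and 9.84 CPM of Cd200r1, on 11 and 7 Cd200r1 UMIs.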
